A study of Homo sapiens with 8 samples.

Results

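The difference between NCI-H1944 and NCI-H647 in their response to an inhibitor of the kinase MPS1 was measured in all 8 libraries of the study, over 12887 genes. Both are established human lung cancer cell lines, labelled wild type. In each line cells were given 100 nM of BAY-1217389 (labelled MPS1i), or DMSO. Exposure lasted 48 hours, and harvest followed 24 hours after washout of the agent. That makes 4 groups of 2 libraries: NCI-H1944 after DMSO, NCI-H1944 after MPS1i, NCI-H647 after DMSO and NCI-H647 after MPS1i. Of 32128 gene symbols listed for both lines, 15290 passed the count filter in NCI-H1944 and 13710 in NCI-H647, and the 12887 that passed in both were tested. A further 2403 symbols passed in NCI-H1944 alone and 823 in NCI-H647 alone, and they are given by their counts where they are named. For each gene, the log2 change after the inhibitor in NCI-H647 was subtracted from that in NCI-H1944. A positive difference therefore means a larger rise, or a smaller fall, in NCI-H1944.

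MPS1, encoded by TTK, is a kinase of the spindle checkpoint, which delays anaphase while any chromosome lacks attachment. When it is inhibited cells divide with unattached chromosomes, and chromosomes can be missegregated into micronuclei. Nucleic acids that reach the cytosol are detected by RNA sensors such as RIG-I and by the DNA sensor cGAS, which induce interferons and, through them, a large group of antiviral genes. Sensing of this kind can also act through NF-kB, the factor that drives many cytokine genes.

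The lines differ also in how their libraries were made. The NCI-H1944 libraries were poly(A)-selected and totalled 39332931 and 38904473 counts in the controls and 43661342 and 43067647 in the treated cells. The NCI-H647 libraries were depleted of ribosomal RNA, converted for another sequencer, and totalled 19550859 and 17243487 counts in the controls and 13563037 and 13358514 in the treated cells. A gain per gene that is the same in treated and control libraries cancels in the difference, but the line and the library method cannot be told apart in anything else. Small nuclear RNAs, 7SK, 7SL, RMRP and RPPH1 together held at most 0.00186% of counts in NCI-H1944. They held 4.53% and 3.96% in NCI-H647 after DMSO, and 5.29% and 5.16% after MPS1i. The part of that share in the results was not tested beyond a fit of protein-coding genes alone. Levels are in CPM, counts scaled to a common total over the tested genes. In both lines KRT8 and KRT18, keratins of simple epithelium, were at 184 CPM or more in every library. EPCAM, a further epithelial marker, was low in both, at 2.06 to 3.23 CPM in NCI-H1944 and 4.58 to 5.31 in NCI-H647. PTPRC, the common leukocyte antigen, was at most 0.437 CPM. CDH1, the epithelial cadherin, was at 36.1 to 42.9 CPM in NCI-H1944 and at most 0.687 in NCI-H647. The surfactant genes SFTPB, SFTPC and SFTPA1 were at or near 0 in both. Whether the 2 libraries of a group are separate cultures is not in the labels. The p-values therefore cover just the spread among these samples, and that spread may be technical.

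4 promoters are printed to show the motifs that were counted over the gene groups. Genes answering to interferon carry the interferon-stimulated response element (ISRE), searched here as GAAANNGAAA, and many inflammatory and matrix genes carry a site for the factor AP-1, searched as TGANTCA. Both were searched on both strands in the 250 bases before the start site, in RefSeq promoters of build GRCh38.p14, and capitals mark the matches. IFIT1 and GBP1 were induced more in NCI-H1944. CXCL8 was induced more in NCI-H647, and F3 rose in NCI-H1944 and fell in NCI-H647. Each sequence is printed 5′ to 3′ on the gene's own strand. IFIT1 lies at chr10:89392373-89392622 on the plus strand and GBP1 at chr1:89065209-89065458 on the minus strand. CXCL8 lies at chr4:73740319-73740568 on the plus strand and F3 at chr1:94541760-94542009 on the minus strand.
IFIT1: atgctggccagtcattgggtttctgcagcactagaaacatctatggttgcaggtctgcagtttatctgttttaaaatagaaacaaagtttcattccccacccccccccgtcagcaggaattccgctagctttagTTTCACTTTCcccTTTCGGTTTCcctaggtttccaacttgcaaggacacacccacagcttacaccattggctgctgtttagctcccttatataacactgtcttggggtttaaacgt
GBP1: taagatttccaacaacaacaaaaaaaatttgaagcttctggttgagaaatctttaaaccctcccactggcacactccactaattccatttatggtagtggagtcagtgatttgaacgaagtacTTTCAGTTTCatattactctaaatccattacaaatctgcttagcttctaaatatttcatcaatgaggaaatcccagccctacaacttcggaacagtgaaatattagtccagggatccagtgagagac
CXCL8: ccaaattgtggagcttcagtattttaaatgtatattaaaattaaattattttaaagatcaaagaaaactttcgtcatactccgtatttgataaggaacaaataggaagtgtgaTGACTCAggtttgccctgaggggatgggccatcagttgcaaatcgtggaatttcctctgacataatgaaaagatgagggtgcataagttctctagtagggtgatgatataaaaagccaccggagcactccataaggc
F3: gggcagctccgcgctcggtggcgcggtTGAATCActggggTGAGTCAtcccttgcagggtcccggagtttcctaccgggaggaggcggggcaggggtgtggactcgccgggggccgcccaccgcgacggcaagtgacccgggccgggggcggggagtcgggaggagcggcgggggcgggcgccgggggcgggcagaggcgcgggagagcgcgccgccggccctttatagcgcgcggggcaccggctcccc
The ISRE matches begin 116 and 103 bases upstream of the start in IFIT1 and 127 bases in GBP1. The AP-1 matches begin 137 bases upstream in CXCL8 and 223 and 210 bases upstream in F3. An ISRE match was present in 18.7% of 235 promoters of genes that rose in both lines and more in NCI-H1944. It was present in 2.55% of 15072 promoters of all genes tested and in 3.34% of 628 promoters of genes that rose in both lines and more in NCI-H647. The list of interferon-stimulated genes, 48 promoters, held it in 60.4%. An AP-1 match was present in 8.51% and 7.80% of the same 2 sets, and in 4.43% of promoters of all genes tested. Of the 12887 genes tested, 10346 had a promoter in the table, some with several starts. The windows of RIGI, IL1B and CDKN1A, and of the first of 2 listed starts of AXL, hold no match to either run of letters. The second AXL start is not described here. A match is a description of letters and was not tested as a binding site.

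The responses differed in 5166 genes, 40.1% of those tested (edgeR's quasi-likelihood test of the interaction, Benjamini-Hochberg adjusted p under 0.05). The change was higher in NCI-H1944 for 2926 genes (22.7%) and higher in NCI-H647 for 2240 (17.4%). With protein-coding genes alone these were 2546 and 2433. In the fit of all 12887 genes, MPS1i changed 4458 genes in NCI-H1944 (34.6%), 2380 of them higher (18.5%) and 2078 lower (16.1%). In NCI-H647 it changed 7219 (56%), 3444 higher (26.7%) and 3775 lower (29.3%). Most differences were small, and a higher change can also be a smaller fall. The change was at least 2-fold higher in NCI-H1944 for 338 called genes and in NCI-H647 for 296. At least 8-fold differences numbered 33 and 20. The median standard error of a difference was 0.110 on the log2 scale, and the median difference over all genes was 0.04. Across genes the 2 changes had a Pearson correlation of 0.424 and a Spearman correlation of 0.436 (n = 12887 genes, which are not independent replicates).

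**Figure D1:**
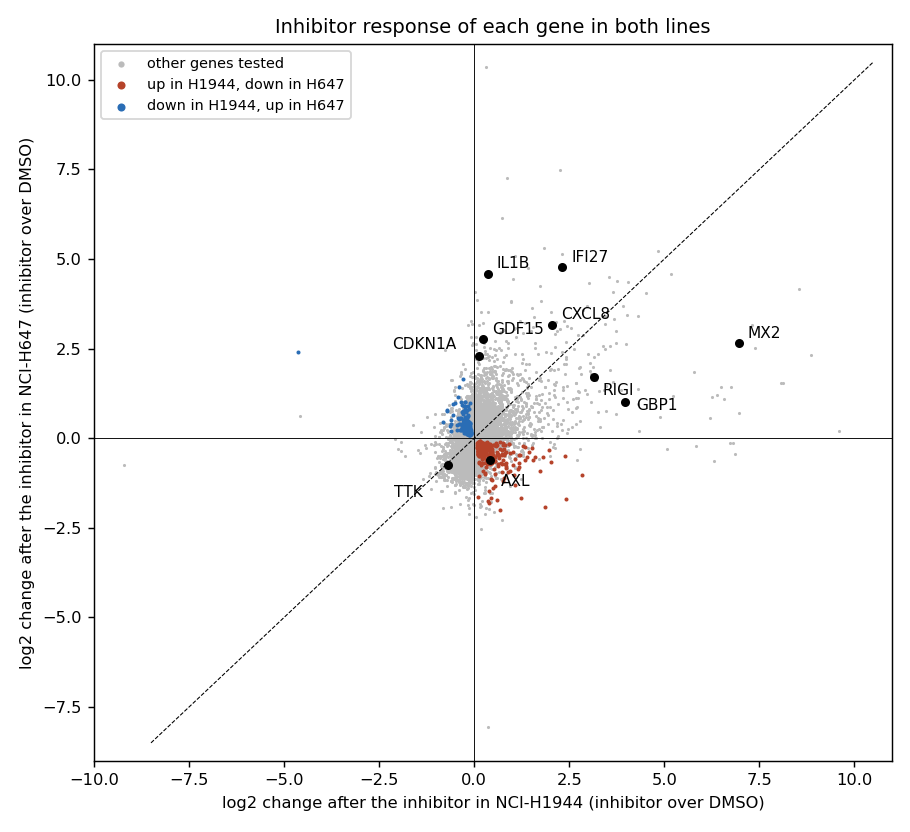
Log2 change after MPS1i over DMSO in NCI-H1944 (x axis) against that in NCI-H647 (y axis) for each of 12887 genes. Red and blue points are the 309 and 166 genes called in opposite directions, black points are named genes, and the dashed line marks equal change: MX2, RIGI and GBP1 lie below it, IL1B, GDF15, CDKN1A, IFI27 and CXCL8 above it, and TTK on it.

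The called genes fell into several patterns. Of genes called in both lines, 2710 moved the same way (1357 up and 1353 down) and 475 moved in opposite directions. Among those that rose in both, 199 rose more in NCI-H1944 and 507 more in NCI-H647. Among those that fell in both, 627 fell more in NCI-H647 and 24 more in NCI-H1944. Genes with a called difference and a call in NCI-H647 alone numbered 1303 up and 1372 down, against 345 up and 179 down with a call in NCI-H1944 alone. In 6823 genes (52.9%) both treated libraries lay apart from both controls in each line, whatever the direction. Counts of called genes also follow the depth and the spread of each line's libraries, so they do not rank the lines. The largest differences were mostly of genes that were low in 1 line after DMSO. Of 83 genes whose change was at least 4-fold higher in NCI-H1944, 79 had a lower DMSO level there, and 63 of the 83 were under 1 CPM. Of 59 genes at least 4-fold higher in NCI-H647, 50 had a lower DMSO level in NCI-H647, and 44 of the 59 were under 1 CPM there. The DMSO libraries enter both the level and the change, so the 2 are not independent.

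5 genes that mark the contrast, all protein-coding and all placed in build GRCh38, had these levels. MX2 encodes an interferon-induced dynamin-like GTPase (chromosome 21, 41361999 to 41409393). It was at 0.879 and 0.969 CPM in the NCI-H1944 libraries after DMSO and at 111 and 121 after MPS1i. In NCI-H647 it was at 20.2 and 21.7 after DMSO and at 132 and 129.5 after MPS1i. The treated libraries of both lines met at about the same level, and the NCI-H1944 controls stood far below the rest. Here and below, levels set side by side between the lines also differ in library method, whose part was not tested. The log2 change was 6.96 ± 0.09 in NCI-H1944 and 2.65 ± 0.07 in NCI-H647 (n = 2 libraries per group here and throughout, ± the standard error of the fit), a difference of 4.32 ± 0.14 (edgeR adjusted p = 1.52e-16).

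RIGI, listed in the tables under its older symbol DDX58, encodes the RNA sensor RIG-I (chromosome 9, 32455302 to 32526208). It was at 52.1 and 51.7 CPM after DMSO and 467 and 452 after MPS1i in NCI-H1944, and at 24.1 and 21.8 after DMSO and 73.0 and 77.0 after MPS1i in NCI-H647. NCI-H1944 was higher in both conditions. The difference was 1.44 ± 0.07 (edgeR adjusted p = 5.12e-13), from a change of 3.15 in NCI-H1944 and 1.70 in NCI-H647.

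IL1B encodes the inflammatory cytokine interleukin-1 beta (chromosome 2, 112829751 to 112836816). Its levels in NCI-H1944 were 1.07 and 1.05 CPM after DMSO and 1.60 and 1.12 after MPS1i, and that change of 0.36 ± 0.19 did not pass the test (edgeR adjusted p = 0.186). In NCI-H647 it was at 24.9 and 23.7 CPM after DMSO and 575 and 595 after MPS1i, a change of 4.59 ± 0.05. The difference of -4.23 ± 0.24 (edgeR adjusted p = 3.30e-12) was close to that of MX2 in size, with the other sign.

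CDKN1A encodes the CDK inhibitor p21, a p53 target that arrests the cell cycle (chromosome 6, 36676460 to 36687337). In NCI-H1944 it was already at 802 and 799.8 CPM after DMSO and was at 857 and 878 after MPS1i, a change of 0.12 ± 0.03. In NCI-H647 it was at 11.6 and 13.2 CPM after DMSO and at 57.8 and 62.5 after MPS1i, a change of 2.28 ± 0.07. Treated NCI-H647 cells thus stayed below untreated NCI-H1944 cells. The difference was -2.17 ± 0.08 (edgeR adjusted p = 1.22e-15).

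AXL encodes a receptor tyrosine kinase of mesenchymal-type tumour cells (chromosome 19, 41219223 to 41261766). It rose from 84.6 and 84.0 CPM after DMSO to 112 and 114 after MPS1i in NCI-H1944 and fell from 463 and 478 to 304 and 309.8 in NCI-H647. No treated library overlapped a control in either line, which also held for 52.9% of all genes tested. The changes were 0.43 ± 0.03 and -0.61 ± 0.03, and the difference was 1.04 ± 0.05 (edgeR adjusted p = 3.59e-14). TTK itself, the gene of the inhibited kinase, fell in both lines: from 21.0 and 20.8 to 13.2 and 12.5 CPM in NCI-H1944 and from 191 and 194 to 116 and 115 in NCI-H647. Its difference was 0.04 ± 0.08 (edgeR adjusted p = 0.718).

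**Figure D2:**
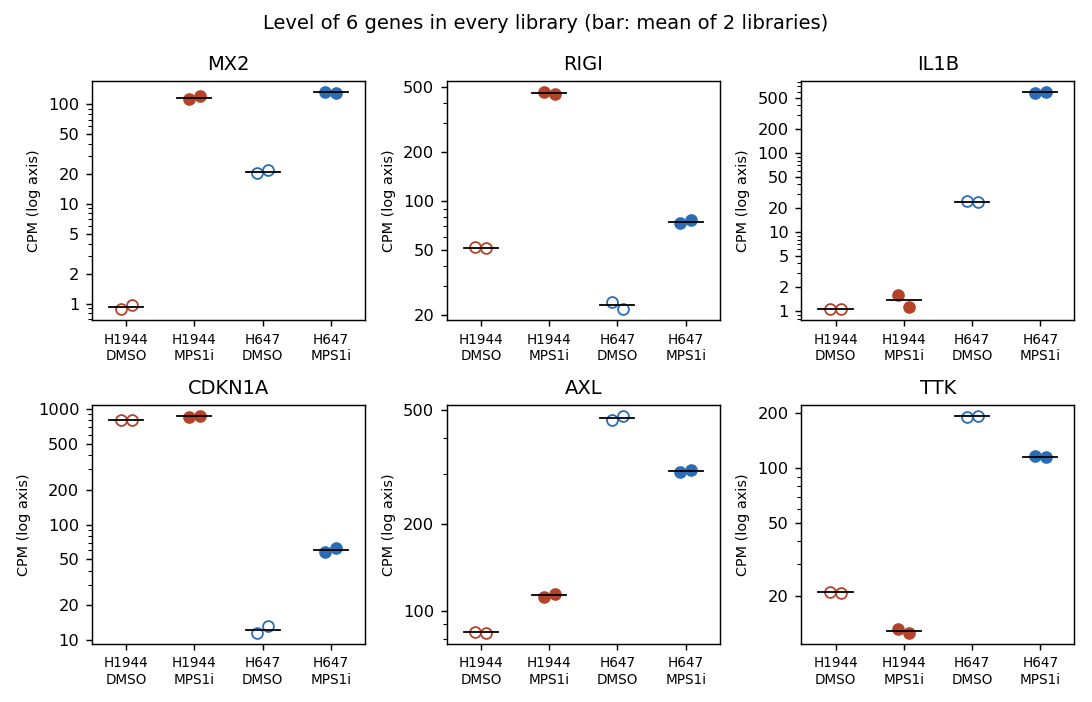
CPM on a log axis for MX2, RIGI, IL1B, CDKN1A, AXL and TTK in each of the 8 libraries; open circles are DMSO, filled circles MPS1i, red NCI-H1944, blue NCI-H647, and bars the mean of 2 libraries. MX2 reaches similar treated levels from unequal controls, IL1B moves in NCI-H647, AXL moves in opposite directions and TTK falls in both.

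All 45 interferon-stimulated genes tested rose in both lines, and the rise was larger in NCI-H1944 for 29 and larger in NCI-H647 for 8. The median log2 change was 2.72 in NCI-H1944 and 1.92 in NCI-H647, against 0.00 and -0.01 over all genes tested. The genes with the larger rise in NCI-H1944 included the following. IFIT1, which encodes a binder of viral RNA, went from 43.7 and 44.3 to 702 and 703 CPM in NCI-H1944 and from 17.4 and 17.8 to 106 and 113 in NCI-H647, a difference of 1.35 ± 0.07 (edgeR adjusted p = 1.28e-12). GBP1, a guanylate-binding GTPase, went from 2.28 and 2.30 to 37.4 and 35.0 CPM and from 48.3 and 44.8 to 92.6 and 93.7. Its difference was 2.98 ± 0.11 (edgeR adjusted p = 2.79e-15). All 4 NCI-H1944 libraries of GBP1 thus lay below the NCI-H647 controls. HERC5, the ligase that attaches ISG15 to proteins, had changes of 3.64 and 1.57 and a difference of 2.07 ± 0.12.

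The 8 members that rose more in NCI-H647 were IFI27, TRIM22, OAS1, ISG15, IFI6, IRF9, MX1 and OAS3, which without the second NCI-H647 DMSO library numbered 5. IFI27, an interferon-induced membrane protein of the mitochondrion, went from 2.68 and 3.92 to 91.8 and 87.1 CPM in NCI-H647 and from 138 and 147 to 699.5 and 721 in NCI-H1944, a difference of -2.46 ± 0.12 (edgeR adjusted p = 4.21e-13). ISG15, a ubiquitin-like modifier, was 219 and 213 and then 1548 and 1615 CPM in NCI-H1944 and 7.59 and 7.85 and then 90.0 and 93.3 in NCI-H647. Its difference was -0.70 ± 0.09 (edgeR adjusted p = 1.75e-06), while its level was higher in every NCI-H1944 library than in any NCI-H647 library. MX1, the neighbour of MX2 and also an antiviral GTPase, had changes of 4.04 and 4.35 (difference -0.31 ± 0.06), so the neighbouring genes differed in opposite senses.

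Of 19 RNA-sensing genes tested, 11 had the higher change in NCI-H1944 and 1, the kinase gene TBK1, in NCI-H647. TBK1 missed the threshold in 6 of the 8 fits that leave out a library. The list's median change was 0.82 in NCI-H1944 and 0.31 in NCI-H647. IFIH1, which encodes the long-RNA sensor MDA5, went from 22.1 and 20.7 to 181 and 174 CPM in NCI-H1944 and from 31.5 and 33.2 to 136 and 141 in NCI-H647 (difference 0.94 ± 0.07, edgeR adjusted p = 9.78e-10). TLR3, the endosomal receptor for double-stranded RNA, went from 5.47 and 6.65 to 29.6 and 26.0 CPM in NCI-H1944 and was at 2.73 and 2.27 and then 2.77 and 2.44 in NCI-H647, where the change of 0.05 ± 0.25 did not pass. The difference was 2.14 ± 0.27 (edgeR adjusted p = 1.17e-06). PNPT1, a mitochondrial RNA exonuclease, and EIF2AK2, the kinase PKR, had differences of 1.82 ± 0.06 and 0.68 ± 0.05. MAVS, the adaptor that RIG-I and MDA5 share, was lower after MPS1i in both lines (-0.27 ± 0.04 and -0.42 ± 0.05), with no called difference.

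Of 15 DNA-sensing genes tested, 9 had the higher change in NCI-H1944 and 0 in NCI-H647 (edgeR, adjusted p under 0.05). TREX1, the cytosolic DNA exonuclease, went from 2.56 and 2.38 to 15.8 and 13.3 CPM in NCI-H1944 and was at 3.17 and 3.56 and then 3.52 and 4.81 in NCI-H647, a difference of 2.25 ± 0.27 (edgeR adjusted p = 5.59e-07). IFI16, a nuclear DNA sensor, SAMHD1, a dNTP hydrolase, and STING1, the adaptor of cGAS, rose in both lines, with differences of 1.29 ± 0.05, 1.15 ± 0.10 and 0.76 ± 0.10. CGAS rose by 0.28 ± 0.07 and 0.31 ± 0.08, and its difference of -0.03 ± 0.11 did not pass (edgeR adjusted p = 0.873).

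The interferon genes themselves were nearly all below the filter in NCI-H647 and were not tested. Counts of the type III interferon gene IFNL1 were 5 and 2 in the NCI-H1944 controls, 241 and 309 in its treated libraries, and 0, 0, 1 and 0 in the same order in NCI-H647. IFNL2 had 0 and 0 against 202 and 270 counts in NCI-H1944 and at most 1 in NCI-H647, and IFNL3 had 0 and 9 against 239 and 302 and then 0 in all 4. The split of reads between IFNL2 and IFNL3, nearly the same in sequence, is uncertain. IFNB1 encodes a type I interferon. Its counts were 0 and 0 against 26 and 22 in NCI-H1944 and 0 and 0 against 1 and 2 in NCI-H647. Relative to the total counts, IFNB1 was at least 14.4-fold higher after MPS1i in NCI-H1944, with a floor of 3 counts over the 2 controls. In NCI-H647 both groups lay at or under that floor, in libraries of lower depth. Such bounds cover counting error only.

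Genes of class I antigen presentation more often had the larger rise in NCI-H1944. Of 21 genes tested, 15 had the higher change there and 0 in NCI-H647, with 1 there without the second NCI-H647 DMSO library, and the median changes were 1.23 and 0.48. NLRC5, the transactivator of class I genes, went from 17.7 and 16.2 to 79.8 and 85.4 CPM in NCI-H1944 and from 10.2 and 10.1 to 13.2 and 13.4 in NCI-H647, a difference of 1.90 ± 0.12 (edgeR adjusted p = 3.64e-11). PSMB9, an immunoproteasome subunit, had a difference of 1.74 ± 0.17. B2M, the light chain of class I molecules, went from 424 and 404 to 1214 and 1166 CPM and from 543 and 516 to 953 and 991, a difference of 0.65 ± 0.05. HLA-B, a class I heavy chain gene, rose by 1.98 in NCI-H1944 and by 1.92 in NCI-H647, and the difference was not called. HLA genes are alike in sequence, so reads may be split between them with error.

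Among 14 checkpoint and NKG2D ligand genes, 3 had the higher change in each line, or 42.9% called, beside 40.1% of all genes tested. CD274, which encodes PD-L1, went from 1.21 and 0.942 to 11.2 and 11.7 CPM in NCI-H1944 and from 17.5 and 17.4 to 44.9 and 44.4 in NCI-H647, a difference of 2.04 ± 0.17 (edgeR adjusted p = 3.24e-09). All 4 NCI-H647 libraries were above all 4 NCI-H1944 libraries. MICA and MICB, ligands of the NK receptor NKG2D, rose in NCI-H647 by 0.89 and 0.92 and had changes of 0.17 and 0.48 in NCI-H1944. PVR, the ligand of the receptors DNAM-1 and TIGIT, fell from 114 and 116 to 104 and 102 CPM in NCI-H1944 and rose from 78.4 and 76.5 to 118 and 122 in NCI-H647, a difference of -0.79 ± 0.06 (edgeR adjusted p = 2.43e-10). RAET1L, a further NKG2D ligand, had 45 and 43 counts against 216 and 296 in NCI-H1944 and 0 in all 4 NCI-H647 libraries.

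The genes with the largest difference toward NCI-H1944, by the rule given in the methods, were MX2, LAMP3, GBP1, TNFSF10, GIMAP2, GCA, TREX1, TLR3, C4orf33 and HERC5, with differences from 4.32 down to 2.07. LAMP3, a lysosomal membrane protein induced by interferon, went from 0.934 and 0.997 to 13.8 and 11.7 CPM in NCI-H1944 and from 39.2 and 40.0 to 61.7 and 65.7 in NCI-H647 (difference 3.03 ± 0.16). TNFSF10, the death ligand TRAIL, went from 2.36 and 2.83 to 29.8 and 27.2 and from 9.72 and 9.81 to 15.4 and 17.9 CPM (difference 2.69 ± 0.17). GCA, which encodes the calcium-binding protein grancalcin, and C4orf33 rose in NCI-H1944 by 1.96 and 1.60 and fell in NCI-H647 by 0.32 and 0.53. In 9 of these 10 genes the DMSO level was lower in NCI-H1944.

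**Figure D3:**
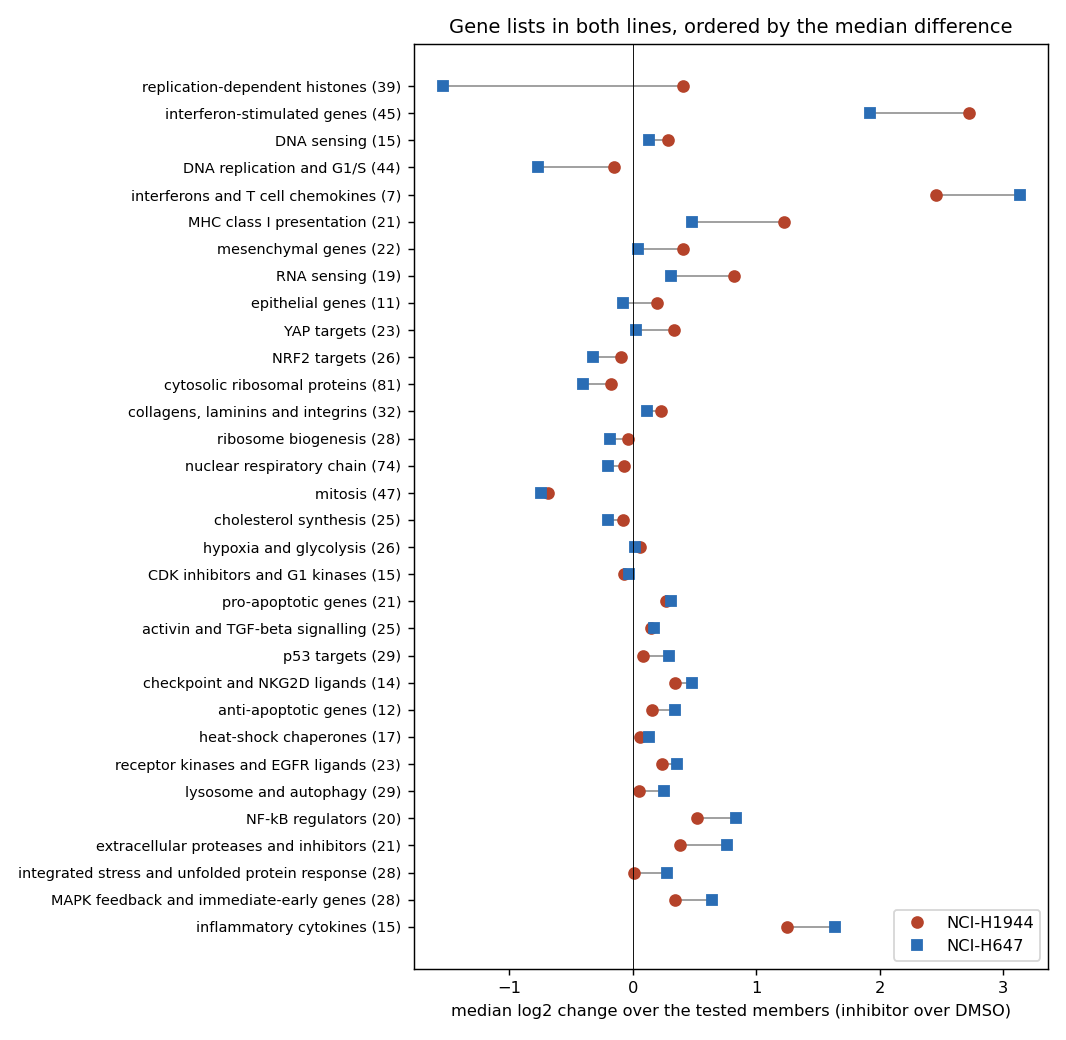
Median log2 change after MPS1i over the tested members of each gene list (number in brackets) in NCI-H1944 (circles) and NCI-H647 (squares), ordered by the median of the members' differences. Histone, interferon-stimulated, DNA sensing and DNA replication genes stand at the top, and immediate-early and inflammatory cytokine genes at the bottom; for interferons and T cell chemokines the order of the medians is the reverse of the sign of the median difference.

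Inflammatory genes showed the opposite tilt. Of 15 inflammatory cytokine genes tested, 13 rose in NCI-H1944 and 14 in NCI-H647, and the change was higher in NCI-H647 for 8 and in NCI-H1944 for 2. The medians were 1.25 and 1.63. CXCL8, the neutrophil chemokine interleukin-8, went from 7.23 and 5.29 to 28.7 and 23.1 CPM in NCI-H1944 and from 546 and 537 to 4738 and 4975 in NCI-H647, a difference of -1.12 ± 0.13 (edgeR adjusted p = 6.27e-07). LIF, a cytokine of the IL-6 family, went from 142 and 143 to 148 and 159 CPM and from 19.6 and 17.6 to 56.1 and 57.6 (difference -1.50 ± 0.08). IL6 itself rose by 2.03 and 2.39, and its difference of -0.36 ± 0.10 (edgeR adjusted p = 0.00434) was -0.17 and not called once all libraries were thinned to the smallest total. CXCL2, a further neutrophil chemokine, had a difference of -0.84 ± 0.09. CSF1, the macrophage growth factor, went the other way, from 21.1 and 18.7 to 46.8 and 48.0 CPM in NCI-H1944 and from 142 and 140.2 to 165 and 152 in NCI-H647 (difference 1.08 ± 0.08).

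Several secreted factors failed the filter in NCI-H1944 and were not tested. CSF2, which encodes GM-CSF, had 12 and 3 counts in the controls and 289 and 311 after MPS1i in NCI-H647 and 0 in all 4 NCI-H1944 libraries. CSF3, which encodes G-CSF, had 272 and 280 against 2380 and 2286 counts in NCI-H647 and at most 2 in NCI-H1944. INHBA, the activin subunit, had 134 and 82 against 873 and 878 counts in NCI-H647 and at most 2 in NCI-H1944. SERPINB2, an inhibitor of plasminogen activators, had 6 and 9 against 128 and 141 counts in NCI-H647 and 6 and 0 against 18 and 10 in NCI-H1944.

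Among T cell chemokines, CCL5, which attracts T cells, went from 24.9 and 27.6 to 113 and 121 CPM in NCI-H1944 and from 2.46 and 1.72 to 19.6 and 20.5 in NCI-H647, a difference of -1.10 ± 0.18 (edgeR adjusted p = 3.13e-05). CXCL10, the interferon-induced attractant of T cells, had 0 and 0 counts against 72 and 66 in NCI-H1944 and 1 and 2 against 24 and 19 in NCI-H647. Its treated levels were 1.80 and 1.68 CPM and 1.80 and 1.45 CPM in the 2 lines, and the difference did not pass (edgeR adjusted p = 0.0519); it passed in limma-voom and with the lines fitted apart. Of 7 tested genes on the list of interferons and T cell chemokines, 1 had the higher change in NCI-H1944, and 2 had it in NCI-H647. A difference was thus called in 42.9% of them, near the 40.1% of all genes tested. The list's median changes were 2.45 and 3.13, while the median of the 7 differences was 0.43, which has the other sign.

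Regulators of NF-kB and of MAP kinase signalling also had the larger rise in NCI-H647 more often. Of 20 NF-kB genes, 11 had the higher change there and 3 in NCI-H1944, with medians of 0.84 and 0.52. SOD2, a mitochondrial superoxide dismutase and NF-kB target, went from 525 and 516 to 888 and 863 CPM in NCI-H1944 and from 459 and 468 to 1798 and 1744 in NCI-H647, a difference of -1.19 ± 0.04 (edgeR adjusted p = 2.20e-15). ICAM1, an adhesion receptor for leukocytes, and NFKB2, an NF-kB subunit, had differences of -0.68 ± 0.08 and -0.43 ± 0.06. TNFAIP2, an inducible target, had a difference of -0.53 ± 0.05. TNFAIP3, the feedback inhibitor A20, and BIRC3, an inhibitor of apoptosis, rose in both lines with no called difference.

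Of 28 immediate-early and MAP kinase feedback genes, 16 had the higher change in NCI-H647 and 4 in NCI-H1944, with medians of 0.64 and 0.35. JUNB, a subunit of AP-1, went from 126 and 123 to 156 and 162 CPM in NCI-H1944 and from 34.9 and 34.5 to 98.7 and 101 in NCI-H647 (difference -1.17 ± 0.06, edgeR adjusted p = 1.18e-12). DUSP5 and DUSP1, phosphatases of MAP kinases, had differences of -0.99 ± 0.06 and -0.96 ± 0.05. EGR1, an immediate-early zinc-finger factor, was an exception, with changes of 3.05 in NCI-H1944 and 1.88 in NCI-H647. AREG, EREG and HBEGF, ligands of the EGF receptor, rose in both lines and more in NCI-H647, with differences of -1.23 ± 0.17, -1.07 ± 0.07 and -1.02 ± 0.10. EGFR, their receptor, rose by 0.47 and 0.36 with no called difference.

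Extracellular proteases and their inhibitors had the higher change in NCI-H647 for 12 of 21 genes tested and in NCI-H1944 for 3, with medians of 0.76 and 0.38. The 3 were MMP13, MMP2 and TIMP2, and the count was 1 without any of 5 of the 8 libraries in turn: the first NCI-H1944 DMSO library, the first NCI-H1944 MPS1i library, the second NCI-H647 DMSO library and either NCI-H647 MPS1i library. TIMP1, an inhibitor of metalloproteinases, went from 167 and 158 to 222 and 228 CPM in NCI-H1944 and from 213 and 217 to 504 and 524 in NCI-H647, a difference of -0.79 ± 0.05 (edgeR adjusted p = 1.23e-11). PLAUR, the receptor of urokinase, had a difference of -0.47 ± 0.05. LAMB3 and COL7A1, a laminin chain and a collagen of the epithelial anchorage, rose by 1.95 and 1.43 in NCI-H647 and by 0.44 and 0.11 in NCI-H1944.

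The genes with the largest difference toward NCI-H647 by the same rule were NR4A1, UNC13A, GDF15, IFI27, SAT1, PTGS2, FAM156B, CDKN1A, NR4A3 and TFPI2, with differences from -3.16 to -2.03. NR4A1, an immediate-early nuclear receptor, went from 2.95 and 2.82 to 33.3 and 33.7 CPM in NCI-H647 and from 174 and 181 to 220.0 and 239.8 in NCI-H1944 (difference -3.16 ± 0.12). PTGS2, the prostaglandin synthase COX-2, went from 212 and 205 to 1608 and 1648 CPM in NCI-H647 and from 147 and 138 to 239 and 224 in NCI-H1944 (difference -2.26 ± 0.05). SAT1, the acetyltransferase that breaks down polyamines, had changes of 2.56 and 0.27. FAM156B, which has a near-identical copy, was at 1.26 and 3.49 and then 13.9 and 3.82 CPM in NCI-H647, so the treated libraries lay far apart, and its difference of -2.19 ± 0.47 was -0.96 and not called without the first NCI-H647 MPS1i library. In 9 of these 10 genes the DMSO level was lower in NCI-H647.

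Targets of the tumour suppressor p53 did not move as a block. Of 29 tested, 12 rose and 6 fell in NCI-H1944, 14 rose and 7 fell in NCI-H647, and the change was higher in NCI-H647 for 13 and in NCI-H1944 for 7, or 4 without the first NCI-H647 DMSO library. GDF15, a stress-induced cytokine, went from 790.1 and 824 to 940.2 and 959 CPM in NCI-H1944 and from 3.0 and 1.66 to 16.1 and 16.3 in NCI-H647, a difference of -2.53 ± 0.16 (edgeR adjusted p = 2.55e-11). PMAIP1, the BH3-only protein NOXA, rose by 1.01 and 1.63. MDM2, the ubiquitin ligase of p53, was at 392 and 385 and then 460.3 and 438 CPM in NCI-H1944 and at 98.6 and 93.7 and then 93.2 and 100.3 in NCI-H647. Its difference of 0.20 ± 0.06 (edgeR adjusted p = 0.00688) was 0.16 and 0.15, and not called, without the first NCI-H647 DMSO or the first NCI-H647 MPS1i library. PLK2, a polo-like kinase, rose by 0.57 in NCI-H1944 and fell by 0.13 in NCI-H647. Of 15 genes of CDK inhibitors and G1 kinases, 5 had the higher change in NCI-H1944 and 3, with CDKN1A among them, in NCI-H647. That is 53.3% with a called difference, beside 40.1% of all genes tested. CDK6, a G1 kinase, rose by 0.32 in NCI-H1944 and fell by 0.25 in NCI-H647.

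Mitotic genes fell in both lines with close medians, and DNA replication genes fell further in NCI-H647. Of 47 mitotic genes, 45 fell in NCI-H1944 and 46 in NCI-H647, with medians of -0.69 and -0.74. A difference was called for 18 of them (38.3%, beside 40.1% of all genes), 14 with the deeper fall in NCI-H647 and 4, AURKA, PLK1, PTTG1 and UBE2C, with the deeper fall in NCI-H1944. That count of 4 was 1 without the second NCI-H1944 DMSO or the second NCI-H647 MPS1i library, and 2 without the second NCI-H1944 MPS1i or the first NCI-H647 DMSO library. CDC20, the activator of the anaphase-promoting complex, fell from 62.0 and 58.9 to 30.1 and 32.9 CPM and from 165 and 162 to 81.0 and 85.0, with a difference of 0.04 ± 0.07 (edgeR adjusted p = 0.709). CCNB1, the mitotic cyclin B1, fell by 0.92 and 0.97, with a difference of 0.05 ± 0.06 (edgeR adjusted p = 0.528). ASPM, a spindle pole protein, fell more in NCI-H647 (difference 0.60 ± 0.05), as did the proliferation marker MKI67 (0.37 ± 0.05) and the kinetochore gene CENPF (0.26 ± 0.05). ECT2, the exchange factor of cytokinesis, fell in NCI-H647 alone by the test, and its difference was 0.45 ± 0.05.

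Of 44 genes of DNA replication and the G1/S transition, 21 fell in NCI-H1944 and 42 in NCI-H647, and 0 rose in either. The change was higher in NCI-H1944 for 35 and higher in NCI-H647 for 0. The medians were -0.15 and -0.76. MCM2, a subunit of the replicative helicase, was at 101 and 104 CPM after DMSO and 103 and 103 after MPS1i in NCI-H1944 and fell from 80.7 and 75.2 to 46.9 and 42.1 in NCI-H647, a difference of 0.83 ± 0.08 (edgeR adjusted p = 9.09e-09). MCM4, MCM5 and MCM6, of the same helicase, had differences of 0.72 ± 0.05, 0.74 ± 0.08 and 0.86 ± 0.07. In all 4 of these genes the NCI-H1944 change did not pass the test, and the treated NCI-H647 libraries lay below their controls. Treated and control libraries lay apart in both lines in 52.9% of all genes tested.

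Replication-dependent histone genes had the largest median difference of the lists with at least 5 tested members. Of 69 listed, 39 were tested. Of these 16 rose and 0 fell in NCI-H1944, 36 fell and 0 rose in NCI-H647, and the change was higher in NCI-H1944 for 36 and in NCI-H647 for 0, or 1 without the second NCI-H647 DMSO library. The medians were 0.41 and -1.54. H1-2, a linker histone, went from 42.1 and 43.7 to 59.4 and 62.5 CPM in NCI-H1944 and from 794 and 782 to 293 and 312 in NCI-H647, a difference of 1.89 ± 0.05 (edgeR adjusted p = 3.32e-17). H2BC12, a core histone H2B gene, went from 103 and 107 to 135 and 143 and from 451 and 403 to 127 and 117 CPM (difference 2.20 ± 0.07). Histone mRNAs of this kind mostly end in a stem-loop in place of a poly(A) tail, and their share of counts differed between the lines. They held 0.0472% and 0.0492% of counts in the poly(A)-selected NCI-H1944 libraries after DMSO and 0.0648% and 0.0669% after MPS1i. In NCI-H647 they held 1.51% and 1.43% after DMSO and 0.492% and 0.519% after MPS1i. The NCI-H1944 counts are of those copies that poly(A) selection kept, and the line and the library method cannot be told apart here. Of the untested members, H1-5, a linker histone, had 11872 and 9839 counts in the controls and 1851 and 1992 after MPS1i in NCI-H647, and at most 4 in an NCI-H1944 library.

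**Figure D4:**
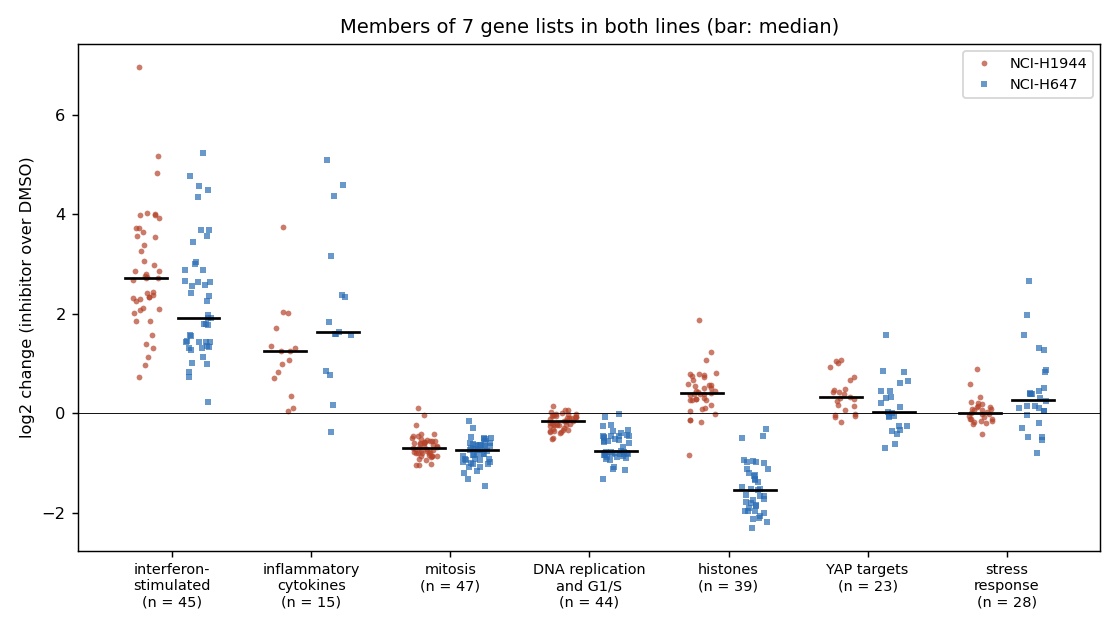
Log2 change after MPS1i of each tested member of 7 gene lists in NCI-H1944 (red circles) and NCI-H647 (blue squares), with bars at the medians. Mitotic genes overlap between the lines, DNA replication genes and histones lie lower in NCI-H647, and interferon-stimulated genes lie above 0 in both.

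Of 81 cytosolic ribosomal protein genes, 68 fell in NCI-H1944 and 74 in NCI-H647, with medians of -0.18 and -0.40, and the change was higher in NCI-H1944 for 58 and in NCI-H647 for 1, RPL28, or 2 without the first NCI-H647 DMSO library. RPL3, of the large subunit, went from 2314 and 2324 to 1642 and 1672 CPM and from 1072 and 997 to 487 and 506 (difference 0.57 ± 0.05, edgeR adjusted p = 5.01e-09). Ribosomal proteins have many processed copies in the genome, so counts of single members are uncertain. Of 28 ribosome biogenesis genes, 6 fell and 3 rose in NCI-H1944, and 15 fell and 6 rose in NCI-H647. The change was higher in NCI-H1944 for 12 of them and in NCI-H647 for 2, which was 1 without the second NCI-H1944 DMSO, the second NCI-H647 DMSO or the first NCI-H647 MPS1i library. A difference was called in 50% of these 28 genes, beside 40.1% of all genes tested. NPM1, the nucleolar protein nucleophosmin, had a difference of 0.55 ± 0.05, and UTP20, of the small subunit processome, rose by 0.17 in NCI-H1944 and fell by 0.75 in NCI-H647.

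Stress response genes more often had the higher change in NCI-H647. Of 28 genes of the integrated stress and unfolded protein responses, 8 rose and 9 fell in NCI-H1944, 18 rose and 6 fell in NCI-H647, and the change was higher in NCI-H647 for 16 and in NCI-H1944 for 3, with medians of 0.28 and 0.01. PPP1R15A, the phosphatase subunit GADD34, went from 118 and 118 to 178 and 180.0 CPM in NCI-H1944 and from 24.6 and 26.1 to 101 and 99.7 in NCI-H647, a difference of -1.39 ± 0.06 (edgeR adjusted p = 8.36e-14). DDIT3, the factor CHOP, had a difference of -1.37 ± 0.12. ATF4, the transcription factor of the integrated stress response, fell by 0.16 in NCI-H1944 and rose by 0.14 in NCI-H647. Its target TRIB3 and the transporter chain gene SLC3A2 moved likewise, by -0.16 and 0.40 and by -0.12 and 0.39. The serine synthesis gene PSAT1, also on the list, fell in both lines and further in NCI-H647 (difference 0.60 ± 0.05).

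Of 29 lysosome and autophagy genes, 9 rose in NCI-H1944 and 19 in NCI-H647, and the change was higher in NCI-H647 for 17 and in NCI-H1944 for 3. The 3 were 1 without the first NCI-H1944 MPS1i, either NCI-H647 DMSO or the second NCI-H647 MPS1i library. GABARAPL1, an autophagosome marker, and CTSL, a lysosomal protease, rose in both lines with differences of -0.84 ± 0.06 and -0.50 ± 0.06. WIPI1 and MAP1LC3B, proteins of the forming autophagosome, had differences of -0.90 ± 0.09 and -0.78 ± 0.05, and neither change passed in NCI-H1944. Of 26 targets of the antioxidant factor NRF2, 21 fell in NCI-H647 and 13 in NCI-H1944, and the change was higher in NCI-H1944 for 16 and in NCI-H647 for 4. AKR1B10, an aldo-keto reductase, went from 685 and 682 to 609 and 608 CPM in NCI-H1944 and from 201 and 182 to 52.4 and 52.1 in NCI-H647, a difference of 1.71 ± 0.06 (edgeR adjusted p = 7.07e-16). NQO1, a quinone reductase, was at 2189 and 2192 and then 2232 and 2196 CPM in NCI-H1944 and fell from 1174 and 1159 to 722 and 717 in NCI-H647. GCLC, of glutathione synthesis, had a difference of 0.83 ± 0.05. FTH1, the ferritin heavy chain and also on that list, rose by 0.75 in NCI-H647 and was not called in NCI-H1944.

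Of 74 nuclear respiratory chain genes, 27 had the higher change in NCI-H1944, and 2 had it in NCI-H647. That is 39.2% with a called difference, beside 40.1% of all genes tested. The 27 were 15 without the first NCI-H647 DMSO library, and the 2 were 0 without the second NCI-H1944 DMSO or the second NCI-H647 MPS1i library and 1 without either first NCI-H1944 library. Of 26 hypoxia and glycolysis genes, 11 were higher in NCI-H1944 and 9 in NCI-H647. NDRG1 and VEGFA, induced by hypoxia, had changes of -0.01 and 0.04 in NCI-H1944, which did not pass, and of 1.31 and 1.34 in NCI-H647. LDHA, the lactate dehydrogenase, and SLC2A1, the glucose transporter, fell in NCI-H647 by 0.52 and 0.40, with differences of 0.47 ± 0.04 and 0.52 ± 0.05. Of 25 genes of cholesterol synthesis, 8 and 4 were higher in NCI-H1944 and NCI-H647, and the 8 were 4 without the second NCI-H647 MPS1i library. A difference was called in 48% of these 25 genes, beside 40.1% of all genes tested. The sterol carrier gene STARD4 rose by 0.43 in NCI-H1944 and fell by 0.24 in NCI-H647. Of 17 heat-shock chaperone genes, 4 were higher in NCI-H1944 and 5 in NCI-H647, with 3 in NCI-H647 without the second NCI-H1944 DMSO library and 8 there with size factors in place of TMM. A difference was called in 52.9% of these 17 genes. HSPA1A and HSPA1B, near-identical genes of HSP70 between which reads cannot be told apart, had differences of -0.85 ± 0.05 and -0.61 ± 0.06. HSP90AA1 and HSPD1 went the other way, with differences of 0.45 ± 0.05 and 0.37 ± 0.04.

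Opposite directions were called for 475 genes, 3.69% of those tested: 309 (2.4%) rose in NCI-H1944 and fell in NCI-H647, and 166 (1.29%) fell in NCI-H1944 and rose in NCI-H647. The split was more even in some fits. It was 273 and 227 with protein-coding genes alone and 282 and 218 with size factors in place of TMM. Among genes of at least 10 CPM in each line it was 223 and 200. The changes were mostly small. The median changes were 0.27 and -0.34 in the larger class and -0.19 and 0.31 in the smaller. Only 7 of the 475 changed at least 2-fold in both lines (6 and 1), and 33 at least 1.5-fold (30 and 3). The larger class held 15 of the 39 tested histone genes. It also held longer genes, with a median span of 63.0 kb against 33.3 kb for all genes tested, and 247 of its 309 members had the lower DMSO level in NCI-H1944. Of all 12887 genes tested, 6314 had it. Both traits were shared by genes called up in NCI-H1944 alone (53.3 kb, 257 of 345) and down in NCI-H647 alone (42.8 kb, 928 of 1372). The 7 genes that changed at least 2-fold in both lines were COMMD3-BMI1, H19, H2AC7, H2BC11, H4C5, NHSL2 and RPL37A-DT, which lie outside the naming rule. Each of them was under 1 CPM in a library of at least 1 line. COMMD3-BMI1 is a readthrough locus, so its reads cannot be told apart from those of its component BMI1, which was called in the other class.

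By the naming rule, which takes the genes whose smaller change was largest, the class that rose in NCI-H1944 was led by CRYBG1, CAVIN2, EFEMP1, RBM43, PCDH9, ANXA3, GCNT1, NPR3, TGIF2 and CYP2U1. ANXA3, an annexin, a calcium-dependent membrane-binding protein, rose from 24.0 and 25 to 40.2 and 40.9 CPM in NCI-H1944 and fell from 87.3 and 84.6 to 53.8 and 50.5 in NCI-H647 (edgeR adjusted p of the difference = 7.90e-12). CAVIN2, a coat protein of caveolae, rose from 10.0 and 8.56 to 16.5 and 16.6 and fell from 13 and 14.6 to 7.48 and 8.02 CPM, by 0.83 and 0.83. EFEMP1, a fibulin of the extracellular matrix, rose from 1.90 and 1.72 to 4.18 and 3.99 CPM and fell from 495 and 477 to 279 and 283. All 4 NCI-H647 libraries were far above all 4 NCI-H1944 libraries. TGIF2, a repressor of TGF-beta responses, rose by 0.61 and fell by 0.73, and NPR3, the clearance receptor of natriuretic peptides, by 0.76 and 0.62. CRYBG1, RBM43, PCDH9, a protocadherin, GCNT1, a glycan-branching enzyme, and CYP2U1, a cytochrome P450, rose by 0.66 to 1.03 in NCI-H1944 and fell by 0.55 to 0.95 in NCI-H647. In all 10 the DMSO level was lower in NCI-H1944.

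The class that fell in NCI-H1944 was led by ERFE, SNHG7, MXD4, UNC5B, ATG16L2, RGS3, EPB41L4B, NEAT1, CLGN and AMIGO1. NEAT1, the long noncoding RNA that scaffolds paraspeckles, fell from 578 and 595 to 433 and 448 CPM in NCI-H1944 and rose from 542 and 526 to 1443 and 1422 in NCI-H647, from like DMSO levels (difference -1.84 ± 0.04, edgeR adjusted p = 9.71e-19). Part of NEAT1 lacks a poly(A) tail, so the 2 library methods need not count the same transcripts. MXD4, a partner of MAX that opposes MYC, fell from 15.3 and 17.1 to 10.8 and 11.1 CPM and rose from 14.5 and 15.1 to 24.0 and 22.7. SNHG7, a host gene of small nucleolar RNA, fell by 0.71 and rose by 0.75. CLGN, a chaperone of the endoplasmic reticulum, fell by 0.60 and rose by 0.41, and UNC5B, a netrin receptor, by 0.51 and 0.99. ERFE, the hormone erythroferrone, ATG16L2, RGS3, a regulator of G protein signalling, EPB41L4B and AMIGO1, an adhesion protein, fell by 0.40 to 0.83 in NCI-H1944 and rose by 0.46 to 0.79 in NCI-H647. In 8 of the 10 the DMSO level was lower in NCI-H647.

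**Figure D5:**
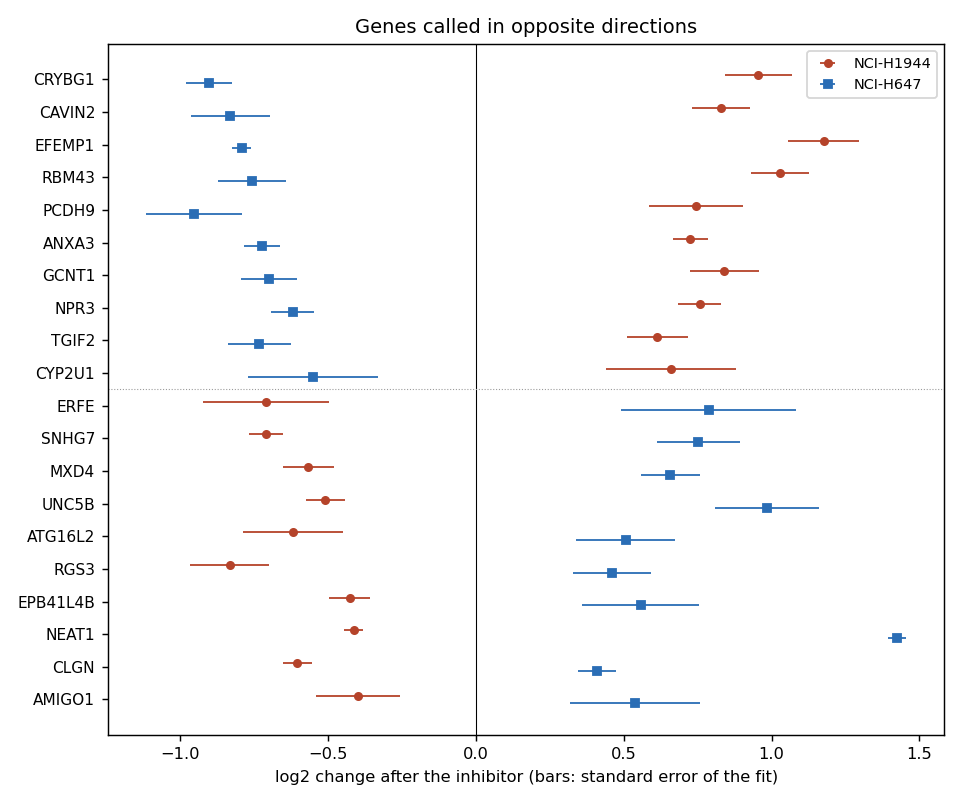
Log2 change after MPS1i in NCI-H1944 (red circles) and NCI-H647 (blue squares) with standard errors of the fit for 20 named genes called in opposite directions. Above the dotted line genes rose in NCI-H1944 and fell in NCI-H647, below it they did the reverse, and no pair of error bars reaches 0.

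Among the lists, opposite calls included targets of YAP, the effector of the Hippo pathway that reads cell shape and tension. Of 23 YAP targets tested, 17 rose and 0 fell in NCI-H1944, 10 rose and 7 fell in NCI-H647, and 6 were called opposite, all up in NCI-H1944: AXL, CRIM1, DLC1, F3, PTPN14 and TGFB2. That class held 2.4% of all genes tested. The list's medians were 0.34 and 0.03. F3, the tissue factor gene printed above, rose from 74.4 and 74.9 to 144 and 143 CPM in NCI-H1944 and fell from 163 and 174 to 131 and 123 in NCI-H647, so that it was higher in NCI-H647 after DMSO and higher in NCI-H1944 after MPS1i (difference 1.35 ± 0.06, edgeR adjusted p = 1.80e-14). TGFB2, a TGF-beta ligand, rose from 3.96 and 3.82 to 6.71 and 6.18 and fell from 928 and 946 to 718 and 772 CPM. CCN1, a matrix protein and a common readout of YAP, rose in both lines, by 1.08 and 0.33. IGFBP3, which binds insulin-like growth factors, and GADD45B, a stress protein, had the higher change in NCI-H647, by differences of -0.71 ± 0.06 and -1.42 ± 0.13.

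Of 22 mesenchymal genes, 16 rose and 0 fell in NCI-H1944, 6 rose and 6 fell in NCI-H647, and the change was higher in NCI-H1944 for 14 and in NCI-H647 for 2. The 4 called opposite, all up in NCI-H1944, were COL5A1, MYL9, TAGLN and TPM1, and that class held 2.4% of all genes tested. TAGLN, the actin-binding protein transgelin, rose from 5.33 and 5.48 to 7.91 and 7.56 CPM in NCI-H1944 and fell from 90.6 and 86.1 to 54.9 and 59.8 in NCI-H647 (difference 1.14 ± 0.11, edgeR adjusted p = 2.39e-08). FN1, fibronectin, and THBS1, thrombospondin, had changes of 0.91 and 1.28 in NCI-H1944 and 0.08 and 0.02 in NCI-H647. Markers of fibroblasts and endothelium, 12 genes, summed to 38.3 and 34.5 CPM after DMSO and 55.2 and 54.5 after MPS1i in NCI-H1944, and to 176 and 183 and then 166 and 156 in NCI-H647. The 4 tested members rose in NCI-H1944, and 0 were called in NCI-H647 (edgeR, adjusted p under 0.05). Their median changes were 0.71 and 0.31, while the sum over all 12 was lower after MPS1i in NCI-H647. The part of these markers in the mesenchymal list was not tested. FN1 and THBS1 were far more abundant in NCI-H647, with FN1 at 2830.0 and 2809 CPM after DMSO there against 26.3 and 28.4 in NCI-H1944. The epithelial keratins KRT8 and KRT18 were called in opposite directions, up in NCI-H1944 and down in NCI-H647. KRT8 rose from 2379 and 2392 to 2904 and 2977 CPM and fell from 254 and 247 to 184 and 189.8. KRT18 rose by 0.20 and fell by 0.31. Of 11 epithelial genes tested, 4 had the higher change in NCI-H1944 and 3 in NCI-H647, where ELF3, an epithelial ETS factor, went from 0.382 and 0.674 to 5.46 and 6.57 CPM.

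4 gene families were picked out after the values of the opposite class had been seen, and their counts only describe it. Of all genes tested, 2.4% were called up in NCI-H1944 and down in NCI-H647 and 1.29% the reverse. Of 55 genes of the actin cytoskeleton and adhesion, 21 were called up in NCI-H1944 and down in NCI-H647 and 0 the reverse, with medians of 0.11 and -0.14. FLNA, the actin crosslinker filamin A, rose from 1581 and 1605 to 1912 and 2017 CPM and fell from 2766 and 2756 to 2084 and 2026, and VCL, the adhesion protein vinculin, rose by 0.15 and fell by 0.38. Of 15 genes of annexins and caveolae, 7 were opposite in the same sense. CAV1, the coat protein of caveolae, rose from 32.8 and 30.8 to 43.3 and 43.4 CPM in NCI-H1944 and fell from 399.9 and 408 to 178 and 186 in NCI-H647, a difference of 1.60 ± 0.06 (edgeR adjusted p = 1.14e-15). ANXA2, an abundant annexin, rose from 1401 and 1384 to 1555 and 1606 and fell from 1607 and 1549 to 1112 and 1137 CPM.

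In the other two families more opposite calls ran the reverse way. Of 35 nuclear speckle and SR-type splicing genes, 10 were called down in NCI-H1944 and up in NCI-H647 and 0 the reverse, with medians of -0.07 and 0.21. The shares of all genes tested were 1.29% and 2.4%. RSRP1, an SR-type protein, fell by 0.14 and rose by 0.82, and LUC7L3, of the U1 particle, fell by 0.11 and rose by 0.43. The falls in NCI-H1944 were small beside the rises in NCI-H647. Of 35 amino acid transporters and cytosolic tRNA synthetases, 7 were called down in NCI-H1944 and up in NCI-H647 and 1 the reverse, with medians of -0.08 and -0.11. Over all 35 the change was higher in NCI-H1944 for 13 and in NCI-H647 for 8, so the family as a whole did not follow its opposite members. SLC1A5, the glutamine transporter, fell by 0.09 and rose by 0.17, and GARS1, the glycine tRNA synthetase, fell by 0.10 and rose by 0.12.

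Lists of matrix and signalling genes were split. Of 32 collagen, laminin and integrin genes 11 had the higher change in NCI-H1944 and 9 in NCI-H647, of 25 activin and TGF-beta genes 7 and 8, and of 23 receptor kinases and EGF receptor ligands 4 and 7. The shares with a called difference were 62.5%, 60% and 47.8%, beside 40.1% of all genes tested. ID1, a target of BMP signalling, fell in NCI-H647 by 0.78 and was not called in NCI-H1944, while TGFBI, a matrix protein, rose in NCI-H647 by 0.50 and was not called in NCI-H1944. ITGA6, a laminin receptor, fell by 0.96 in NCI-H647 and was at 88.6 and 87.6 and then 89.8 and 86.7 CPM in NCI-H1944. ITGA1, an integrin collagen receptor, fell by 0.22 in NCI-H1944 and rose by 0.74 in NCI-H647. Of 21 pro-apoptotic genes 4 had the higher change in each line, or 38.1% called, beside 40.1% of all genes tested. CASP1, the inflammasome caspase, rose by 2.17 and 0.42, and CASP8, the apical caspase of death receptors, rose by 0.30 in NCI-H1944 and fell by 0.30 in NCI-H647. Of 12 anti-apoptotic genes 5 had the higher change in NCI-H647 and 0 in NCI-H1944 (edgeR, adjusted p under 0.05), or 41.7% called. CFLAR, the inhibitor of caspase-8, rose by 0.41 and 0.88. TNFRSF10B, the TRAIL receptor DR5, on the pro-apoptotic list, had a difference of -0.57 ± 0.05, and TNFRSF10D, a decoy receptor of TRAIL, fell by 0.85 in NCI-H1944 and was not called in NCI-H647.

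Markers of other cell types were sparse. Of 15 leukocyte and erythroid markers 2, CD14 and CD68, passed the filter in both lines, and the list summed to 80.4 and 84.7 CPM after DMSO and 185 and 189 after MPS1i in NCI-H1944. In NCI-H647 it summed to 156 and 156, and then to 235 and 234. Nearly all of this was CD68, a lysosomal protein that tumour cells also express, at 176 and 179 CPM in treated NCI-H1944 cells. Of the 15 markers, 5 were at 0 in all NCI-H1944 libraries and 4 in all NCI-H647 libraries. The change of CD68 was higher in NCI-H1944 and that of CD14 in NCI-H647, where it was not called without the first NCI-H647 DMSO library. Of 12 fibroblast and endothelial markers 4 passed in both, and their summed level is given beside the mesenchymal genes. In this list 2 genes had the higher change in NCI-H1944, or 1 without any of 6 of the 8 libraries in turn. The part of these markers in the results was not tested. Of 15 lung lineage genes 2, FOXA1 and TP63, passed in both, and neither difference was called.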

How the data were processed

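RNA sequencing covered both lines after DMSO or MPS1i, 2 libraries per group. The deposited tables, 1 per line, hold raw counts of reads per gene, whole numbers with no normalization. Per the submitters' processing notes the tools were STAR, HISAT2, featureCounts, StringTie, cutadapt, Trimmomatic and Trim Galore, and the build GRCh38 or hg38. Which tool served which line, versions and strand setting: not given in the sources used here. Tables were joined by gene symbol, with 125 genes shown under a newer symbol.

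Genes had to pass edgeR's filterByExpr within each line (minimum count 10, minimum total 15). The 8 libraries were scaled together by TMM and fitted with 4 group means by edgeR 4.0.16 in R 4.3.3 (quasi-likelihood test, Benjamini-Hochberg adjusted p under 0.05 over all 12887 genes). The fit's standard error is the log2 change over the root of F. A gene was called opposite when both lines and the difference were called and the lines' signs differed. Libraries held 13358514 to 43661342 counts, of which 90.4% to 97.8% lay in tested genes. Replicates correlated at 0.994 to 0.995, and their chi-square per degree of freedom of 1.91 to 3.85 exceeded sampling noise, so none was a repeat deposit. CPM is the count scaled by the library's total over the tested genes, adjusted by TMM. It is not per length, so levels were compared between samples and not between genes.

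Members and the 36 gene lists were chosen with earlier results of these data known, and 4 families were added after values were seen. Named genes were the 10 largest differences in each direction and the 10 opposite genes of each class with the largest smaller change. For these the mean log2 CPM had to be at least 1 in each line, treated libraries apart from controls in at least 1 line, and the symbol no clone, readthrough or replication-dependent histone. 20 genes named in any case and up to 4 per list with the smallest p were added. All further genes in the text were picked with their values in view. The list of mitochondrially encoded mRNAs had 0 tested members. The code was tested on simulated counts. Alternatives were other scalings, filters, depth, tests (limma 3.58.1, DESeq2 1.42.0, a 1.5-fold minimum), a replicate block and each library left out. Restriction to genes of at least 10 CPM was added after seeing the data.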

Additional observations from a re-analysis of the deposited data

Results flagged for a closer look

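The lines' effects under the same contrast were tested against each other by the interaction term. It was called for 5166 genes, of which 475 were also called in each line with opposite signs. Among those, 20 genes named by rule had these differences on the log2 scale, NCI-H1944 minus NCI-H647. Of the class that rose in NCI-H1944 and fell in NCI-H647, the difference was 1.86 for CRYBG1, 1.66 for CAVIN2, 1.97 for EFEMP1, 1.78 for RBM43 and 1.70 for PCDH9. It was 1.45 for ANXA3, 1.54 for GCNT1, 1.38 for NPR3, 1.35 for TGIF2 and 1.21 for CYP2U1. Of the class that fell in NCI-H1944 and rose in NCI-H647, it was -1.50 for ERFE, -1.46 for SNHG7, -1.22 for MXD4, -1.49 for UNC5B and -1.12 for ATG16L2. It was -1.29 for RGS3, -0.98 for EPB41L4B, -1.84 for NEAT1, -1.01 for CLGN and -0.94 for AMIGO1. Groups of 2 libraries are too small to look for a sample far from the others.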

How the results depend on the processing

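Calls of the difference kept to within 1.5 times of 2926 and 2240 genes except under a 1.5-fold minimum, where 284 and 233 were called. That minimum also left 3 and 1 opposite genes, 347 higher and 42 lower in NCI-H1944, and 631 higher and 369 lower in NCI-H647. DESeq2 gave 194 and 99 opposite genes and 1574 higher in NCI-H1944. Leaving out each library in turn gave 2316 to 2805 and 1832 to 2159 differences, and 253 to 280 and 114 to 148 opposite genes. The changes then numbered 1907 to 2329 higher and 1554 to 2032 lower in NCI-H1944, and 2881 to 3517 and 3126 to 3853 in NCI-H647. The lone sample left in a group is assumed to vary like the other groups. The differences of CCNB1, CDC20 and TTK changed sign without a call. Over the libraries left out CCNB1 ran from -0.0032 (without the first NCI-H647 DMSO library) to 0.0918, and CDC20 from -0.0271 (without the second NCI-H1944 MPS1i library) to 0.105. TTK was -0.0269 once thinned. The cause was not tested. The share of calls higher in NCI-H1944 was 56.6%, and 49.6% with the differences centred on their median. It was 51.1% with protein-coding genes alone, 51.6% with size factors and 52.2% under DESeq2. Among genes of at least 10 CPM in each line it was 49.8%, and under limma-voom 57.0%. Replicate numbers do not pair the samples (correlations of deviations -0.0042 and -0.0208), and with a replicate block 2943 and 2265 differences and 340 and 190 opposite genes were called. Of 70 counts of list members with a higher change in a line, 56 moved by over 1.5 times under the 1.5-fold minimum, 8 under DESeq2, 7 when thinned, 3 each under limma-voom and without the filter, 2 with protein-coding genes alone, and 1 each with size factors and with the block.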
